A study of Mus musculus with 18 samples.

Results

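The alpha-2,8-sialyltransferase family comprises the 6 mouse genes St8sia1 to St8sia6, taken by symbol from the 25909 genes of the count tables. The family was selected on the counts of St8sia1, St8sia3 and St8sia5, which differ strongly by stage or genotype in these libraries. The values of these 3 members are therefore given as a description with no test, and only St8sia2, St8sia4, St8sia6 and the partner genes of the family were open to testing. St8sia1, St8sia3, St8sia5 and St8sia6 passed the filter on low counts, while St8sia2 and St8sia4 did not and have counts only.

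Sialyltransferases of the Golgi transfer sialic acid from CMP-sialic acid onto glycolipids and glycoproteins, and the St8sia enzymes attach it to a sialic acid that is already there. St8sia1 (GD3 synthase) turns the ganglioside GM3 into GD3 and so opens the b series of gangliosides, and St8sia5 extends gangliosides further to forms with more sialic acids. St8sia3 makes short sialic acid chains on glycolipids and glycoproteins and is best known from brain, St8sia6 adds the second sialic acid mainly on O-linked glycans, and St8sia2 and St8sia4 build the long polysialic acid chains of the neural cell adhesion molecule Ncam1. Surface glycans such as SSEA1 serve as markers of mouse pluripotent stem cells and germ cells in culture.

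Polyadenylated RNA was measured in mouse embryonic stem cells of the SGET line (strain B6CBA/129, grown in 2i/L) that were Esrrb KO or WT and were differentiated toward germ cells. KO and WT epiblast-like cells (EpiLC), induced by activin A together with bFGF, were not sorted. KO and WT primordial germ cell-like cells (PGCLC), induced from EpiLC by BMP4, LIF, SCF, BMP8a and EGF, were taken as the SG+ETlow fraction at day 3 and at day 5. The 18 libraries, 3 a group in 6 groups, had totals of 3032965 to 5286330 counts. KO libraries carry the line names A5, B1 and A2, and WT libraries only numbers, so that the WT spread may be technical (chi-square per degree of freedom 4.12 to 36.0 between KO pairs and 1.14 to 1.88 between WT pairs). Where replicates are not separate cultures, p-values measure only the spread between these libraries. Stage and sort cannot be told apart between EpiLC and PGCLC.

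Esrrb, the nuclear receptor named as knocked out, was measured first. Its counts in EpiLC were 29 in KO A5, 18 in KO B1 and 167 in the library labelled KO A2, against 127, 113 and 79 in WT. At this stage Esrrb RNA in the library labelled KO A2 thus goes against its label. Whether the label is wrong or the state of its cells differs was not tested. At day 3 Esrrb held 745, 499 and 359 counts in KO and 2596, 3125 and 2691 in WT, and fell by 2.13 on the log2 scale (edgeR, adjusted p = 0.00554). At day 5 it fell by 1.89 (adjusted p = 0.00598). Levels are given as CPM, that is counts scaled to 1 common library total. The EpiLC library labelled KO A2 also held the least of the 7 formative epiblast markers (1720 CPM, against 3570 and 4070 CPM in the other KO EpiLC and 5020 to 5130 CPM in WT EpiLC) and the most of the 7 trophoblast markers (1200 CPM, against 193 CPM in KO A5, 91.6 CPM in KO B1 and 54.0 to 62.1 CPM in WT EpiLC). Over the 3 KO EpiLC libraries the trophoblast counts were mostly of the keratins Krt18 (3580) and Krt8 (2456), against 528 and 93 in WT EpiLC. The others held less in KO EpiLC: Gata3 124, Gata2 101, Eomes 63, Cdx2 34 and Elf5 0. Among EpiLC the library labelled KO A2 held the most of the 8 naive pluripotency markers as well (368 CPM, against 172 CPM in KO A5, 91.9 CPM in KO B1 and 153 to 185 CPM in WT). Where leaving this library out ends a call or moves a count in a comparison that includes KO EpiLC, the value without it is given. In sorted cells the 7 germ cell markers summed to 459 to 686 CPM in KO and 707 to 745 CPM in WT at day 3, and to 419 to 667 and 593 to 602 CPM at day 5. Single members went both ways: at day 3 Nanos3 held 127 counts in KO and 27 in WT, and Kit 1418 and 3315. The 8 naive pluripotency markers summed to 1270 to 1480 CPM in KO and 2220 to 2300 CPM in WT at day 3, and to 1320 to 1880 and 2090 to 2190 CPM at day 5. Sums of the 12 neural markers were 387 to 482 CPM in KO EpiLC and 292 to 306 CPM in WT EpiLC. They were 144 to 172 CPM in KO and 179 to 183 CPM in WT at day 3, and 181 to 209 and 156 to 189 CPM at day 5. At day 3, 4 of the 12 were at 0 counts in KO and 3 in WT, among them Dcx, Neurog2 and Olig2 in both. Others were not: Nes held 733 counts in KO and 516 in WT, and Stmn2 576 and 875. The 8 mesoderm and mesenchyme markers summed to 102, 72.3 and 431 CPM in KO EpiLC A5, B1 and A2. In WT EpiLC they summed to 15.1 to 16.9 CPM, so that all 3 KO libraries lay above WT. The list was led by Col1a1, Tagln and Acta2, with 1012, 859 and 386 counts in KO EpiLC and 36, 32 and 12 in WT EpiLC. The mesoderm genes T (7 and 2) and Mixl1 (6 and 3) were near 0. Of the 6 tested genes of this list, 4 were called higher in KO EpiLC (edgeR), where 6.93% of all tested genes were. Without the EpiLC library labelled KO A2, 3 of the 6 were called higher, where 2.29% of all genes were. At day 3 the mesoderm and mesenchyme markers summed to 51.1 to 71.8 CPM in KO and 22.6 to 30.0 CPM in WT. At day 5 the sums were 36.6 to 83 and 19.2 to 28.2 CPM. The 7 trophoblast markers summed to 128 to 273 CPM in KO and 79.2 to 109 CPM in WT at day 3, and to 75.0 to 126 and 70.5 to 97.9 CPM at day 5. The 6 endoderm markers summed to 0.659 to 5.29 CPM in KO and 2.08 to 3.13 CPM in WT at day 3, and to 6.64 to 9.20 and 7.34 to 8.32 CPM at day 5. The part of these marker differences in the results below was not tested, and in bulk RNA fewer cells of a type and less RNA per cell cannot be told apart.

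St8sia1 (ENSMUSG00000030283) lies on the minus strand of chromosome 6 (142821545 to 142964452, GRCm38). The 250 bases before its start are shown because this member had the most counts among those lower in KO PGCLC and ESRRB is known to bind the letters TCAAGGTCA. They span chr6:142964453-142964702 on the minus strand of GRCm38.p6 (RefSeq), outside the annotated transcript, with the matches in capitals.
St8sia1: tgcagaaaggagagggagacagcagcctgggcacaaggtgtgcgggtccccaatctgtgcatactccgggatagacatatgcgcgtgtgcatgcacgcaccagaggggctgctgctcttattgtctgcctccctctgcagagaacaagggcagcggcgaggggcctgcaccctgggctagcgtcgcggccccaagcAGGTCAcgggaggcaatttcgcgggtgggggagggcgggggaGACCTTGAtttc
The letters searched on both strands were TCAAGGTCA and its shorter parts TCAAGGTC, AAGGTCA and AGGTCA. TCAAGGTCA holds all of the shorter ones and AAGGTCA holds AGGTCA, whereas TCAAGGTC holds neither AAGGTCA nor AGGTCA. GACCTTGA, the reverse complement of TCAAGGTC, stands 12 to 5 bases before the start, and AGGTCA 54 to 49 bases before it, while the full TCAAGGTCA is not in this window. Among 32851 promoter windows of this length, 0.935% hold TCAAGGTC, 14.0% AGGTCA, 4.08% AAGGTCA and 0.387% TCAAGGTCA. Of the other members, St8sia2, St8sia4 and St8sia6 have a RefSeq window, and none of these windows holds any of the letters searched. A match in letters is not evidence of binding.

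St8sia1 was high only in WT PGCLC. At day 3 the KO libraries A5, B1 and A2 held 1.72, 0.989 and 0.504 CPM of St8sia1, against 22.9, 18.9 and 24.4 CPM in WT. At day 5 they held 2.70, 2.62 and 1.23 CPM, against 29.6, 29.4 and 27.6 CPM in WT. Every KO library lay more than the whole WT range below the lowest WT library at both days. The level was 19.6-fold lower in KO at day 3 (13 against 302 counts, log2 fold change -4.27 ± 0.32, SE) and 13.5-fold lower at day 5 (29 against 407 counts, -3.73 ± 0.28). These values are among those that chose the family.

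In EpiLC the KO libraries A5, B1 and A2 held 4.0, 3.04 and 2.77 CPM of St8sia1, against 2.03, 1.90 and 3.01 CPM in WT. The groups overlapped, and the log2 fold change of KO over WT was 0.45 ± 0.33. Without A2 the KO mean was 3.52 CPM. Over the stages the WT mean was 2.31 ± 0.61 CPM in EpiLC, 22.1 ± 2.8 CPM at day 3 and 28.9 ± 1.1 CPM at day 5 (SD, n = 3 each). The KO mean was 3.27 ± 0.64 CPM in EpiLC, 1.07 ± 0.61 CPM at day 3 and 2.18 ± 0.83 CPM at day 5. The step from EpiLC to day 3 thus ran in opposite directions, with log2 fold changes of day 3 over EpiLC of -1.53 ± 0.38 in KO and 3.18 ± 0.28 in WT. In order of level, WT day 5 and WT day 3 stood first without overlap, and from KO EpiLC down through WT EpiLC, KO day 5 and KO day 3 each group overlapped the next.

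St8sia5 (ENSMUSG00000025425, chromosome 18, 77185839 to 77258771, plus strand) had a pattern like that of St8sia1 at lower counts. At day 3 all 3 KO libraries were at 0 CPM of St8sia5, against 3.37, 2.65 and 2.96 CPM in WT. At day 5 the KO libraries held 0.738, 0 and 0 CPM, against 7.95, 8.12 and 9.20 CPM in WT. No KO library reached the lowest WT library at either day. KO was at least 11.5-fold lower at day 3, taking 3 counts over the group as the most that 0 counts allow (0 against 41 counts). At day 5 the ratio of KO to WT was 0.0264 (3 against 118 counts, exact 95% counting interval 0.00537 to 0.0791).

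In EpiLC St8sia5 was near 0 in either genotype, with 1 count in KO and 7 in WT over 3 libraries each. Between the PGCLC days it was higher in WT at the later day, with 8.42 ± 0.68 CPM at day 5, against 2.99 ± 0.36 CPM at day 3 (log2 fold change 1.47 ± 0.50, no overlap). The same step of St8sia1 in WT was 0.37 ± 0.22. The difference between these steps was not tested. In order of level WT day 5 and WT day 3 stood first and apart, and the other 4 groups overlapped.

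St8sia3 (ENSMUSG00000056812, chromosome 18, 64254359 to 64279611, plus strand) was the EpiLC member. The KO EpiLC libraries A5, B1 and A2 held 19.3, 18.8 and 2.77 CPM of St8sia3, against 17.7, 18.1 and 19.1 CPM in WT EpiLC. A5 and B1 lay close to the WT libraries, and the library labelled KO A2 stood alone below them. The KO mean was 13.6 ± 9.4 CPM with A2 and 19.0 CPM without it, against 18.3 ± 0.70 CPM in WT, and the log2 fold change of KO over WT was -0.49 ± 0.51 with A2 and -0.01 without it. After the step to PGCLC St8sia3 was at 3 counts in total in KO at each day and at 0 counts in all 6 WT libraries.

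At day 3 St8sia3 was at least 84.3-fold lower than in EpiLC in WT (0 against 222 counts). In KO the ratio of day 3 to EpiLC was 0.0192 (3 against 168 counts, interval 0.00392 to 0.0571). The lower counts of St8sia3 at day 3 were thus seen in KO and in WT. No fold between KO and WT is given for St8sia3 in PGCLC, as all of these groups were at or under 3 counts.

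St8sia6 (ENSMUSG00000003418, chromosome 2, 13651021 to 13794064, minus strand) was present at all 3 stages, and its KO libraries lay below the WT libraries at each. Its KO EpiLC libraries A5, B1 and A2 held 4.23, 3.30 and 2.08 CPM, against 6.58, 7.85 and 8.78 CPM in WT. At day 3 they held 2.16, 1.65 and 0.252 CPM, against 10.6, 9.84 and 10.7 CPM in WT. At day 5 they held 2.70, 6.11 and 0.204 CPM, against 12, 7.71 and 9.44 CPM in WT. KO and WT did not overlap at any stage, and A2 was the lowest library at each.

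St8sia6 fell in KO at day 3 by 2.89 ± 0.63 on the log2 scale (SE, edgeR quasi-likelihood test with Benjamini-Hochberg adjustment over 12856 genes, adjusted p = 0.00867, lower in 3 of 3 KO libraries). In this comparison 10.2% of tested genes were called, 5.18% as lower. The call held when any day 3 library was left out, with adjusted p between 0.0135 and 0.0395. Omission of libraries of other stages is not given for this call. At day 5 it fell by 1.70 ± 0.55 (edgeR, adjusted p = 0.0436), with 17.5% of tested genes called and 7.62% as lower, and this call was lost when KO A5, KO A2 or any of the 3 WT day 5 libraries was left out (-1.84 to -1.13, adjusted p 0.0701 to 0.142). In EpiLC the difference was -1.32 ± 0.57 (adjusted p = 0.133, 11.1% of genes called, 4.15% as lower). Without the EpiLC library labelled KO A2 it was -1.10 and not called (adjusted p = 0.291). With all 3 libraries of line A2 left out St8sia6 was called in EpiLC (-1.10, adjusted p = 0.0211), at day 3 (-2.39, 1.88e-05) and at day 5 (-1.13, 0.00381), in a fit that called 13.8%, 20.9% and 29.9% of all genes.

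The difference of the St8sia6 effect between day 3 and EpiLC was itself not called (-1.57 ± 0.87, edgeR, adjusted p = 0.289, 6.59% of genes called, 3.63% as lower). By stage, day 3 over EpiLC was -1.20 ± 0.71 in KO (adjusted p = 0.182) and 0.37 ± 0.51 in WT (adjusted p = 0.554). Between the PGCLC days the log2 fold change was 1.08 ± 0.71 in KO (adjusted p = 0.596) and -0.11 ± 0.49 in WT (adjusted p = 0.958). In order of level, WT day 3, WT day 5 and WT EpiLC came before KO EpiLC, KO day 5 and KO day 3, and the only neighbours that did not overlap were WT EpiLC and KO EpiLC.

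**Figure D1:**
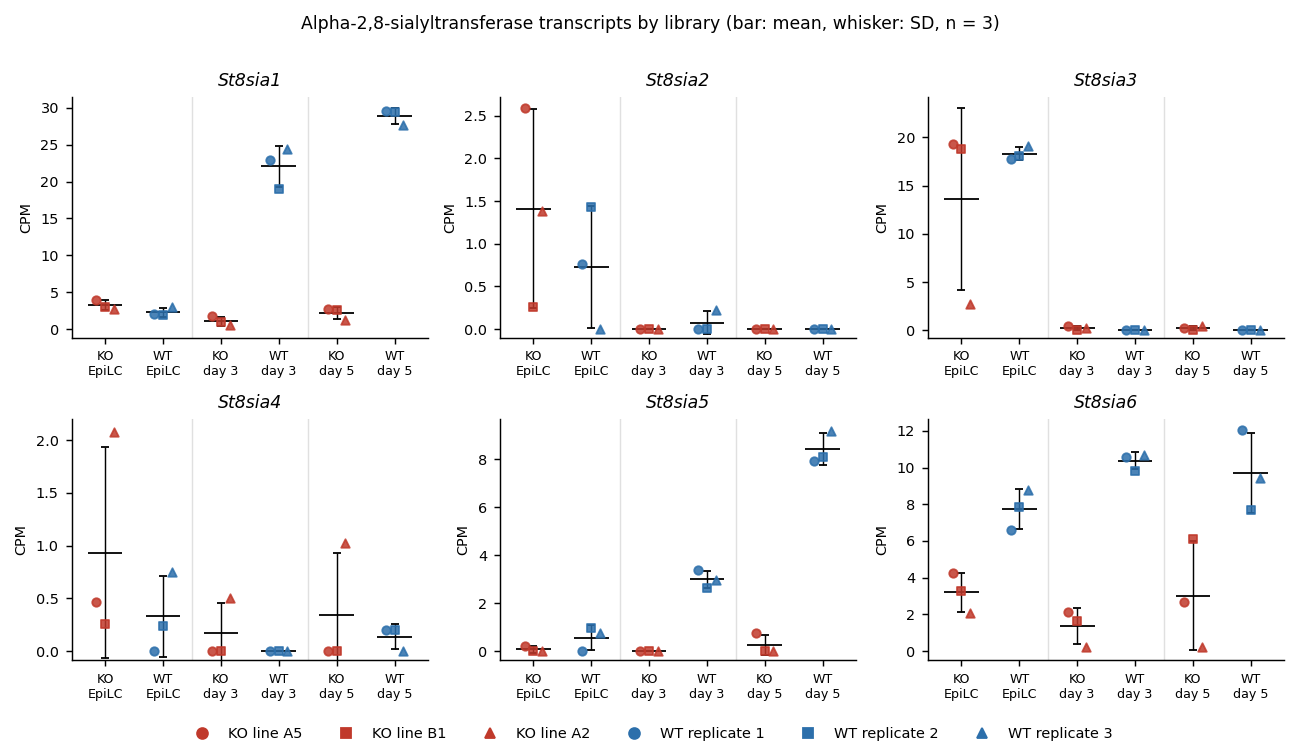
CPM (linear axis) of each family member in the 18 libraries, with KO in red left of WT in blue at each stage, bars at the mean and whiskers of 1 SD (n = 3). St8sia1 and St8sia5 stand out in WT at day 3 and day 5, St8sia3 in EpiLC apart from the library labelled KO A2, and St8sia6 is lower in KO at every stage.

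St8sia2 (ENSMUSG00000025789, chromosome 7, 73939119 to 74013690) and St8sia4 (ENSMUSG00000040710, chromosome 1, 95587682 to 95667571), the polysialic acid polymerases, were at the limit of detection. In EpiLC St8sia2 held 2.59, 0.254 and 1.39 CPM in KO and 0.760, 1.43 and 0 CPM in WT, or 18 and 9 counts. In PGCLC it was at 0 counts in all 6 KO libraries and at 1 count over the 6 WT libraries. KO at day 3 was at least 5.58-fold lower than KO EpiLC, and the ratio of day 3 to EpiLC in WT was 0.0975 (1 against 9 counts, interval 0.00222 to 0.704).

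St8sia4 held 12 counts in KO EpiLC and 4 in WT EpiLC, 2 and 0 at day 3, and 5 and 2 at day 5. Line A2 held most of the KO counts, with 2.08 CPM in EpiLC, 0.504 CPM at day 3 and 1.02 CPM at day 5, against at most 0.470 CPM in A5 or B1 at any stage. Without A2, KO held 3, 0 and 0 counts of St8sia4 at the 3 stages. Intervals and limits from counts cover counting error only.

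Per length, the makeup of the family changed between the stages. Levels were divided by the exonic length of each gene (from 5.38 kb for St8sia2 to 20.1 kb for St8sia4) to compare members. The 6 members summed to 3.17, 2.42 and 1.17 CPM per kb in KO EpiLC A5, B1 and A2, against 2.73, 3.23 and 3.27 CPM per kb in WT EpiLC. At day 3 the sums were 0.503, 0.321 and 0.133 CPM per kb in KO, against 4.45, 3.80 and 4.59 CPM per kb in WT. At day 5 they were 0.799, 1.08 and 0.244 CPM per kb in KO, against 6.21, 5.66 and 5.88 CPM per kb in WT. The summed level was thus several times lower in KO PGCLC, and since 3 of the 6 members were chosen for such differences the sum is a description only.

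St8sia3 led in EpiLC, with 51.6% of the summed level per length in KO and 50.8% in WT, followed by St8sia6 with 18.5% in KO and 32.8% in WT. In WT PGCLC St8sia1 led, with 55.2% at day 3 and 52.2% at day 5. The share of St8sia5 in WT was 3.40% in EpiLC, 12.9% at day 3 and 26.2% at day 5. In KO PGCLC what remained was mostly St8sia6 (55.3% at day 3 and 55.5% at day 5) and St8sia1 (36.0% and 33.1%). Shares are of group means over 3 libraries, A2 included, and those of KO PGCLC rest on few counts.

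**Figure D2:**
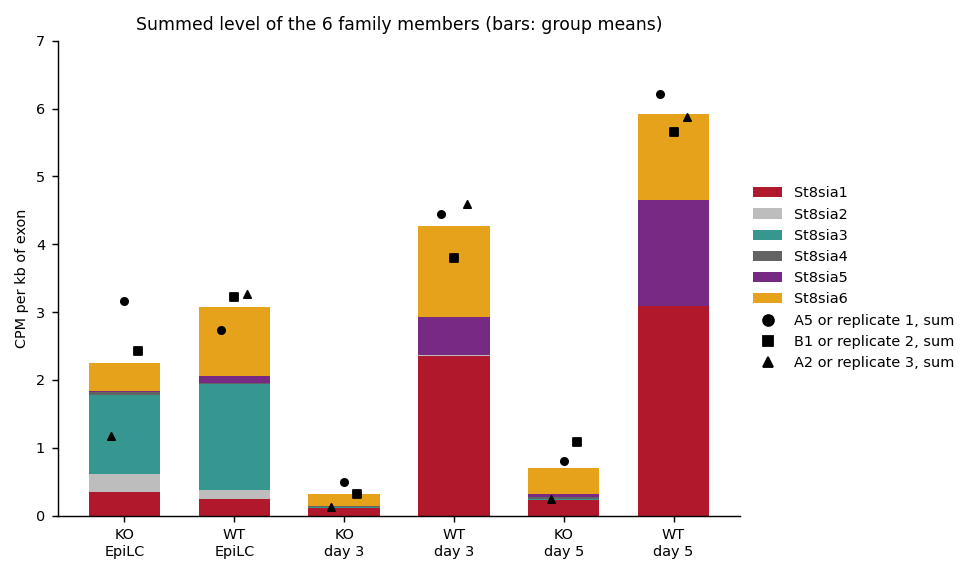
Summed level of the 6 members in CPM per kb of exon (linear axis from 0) for each group, KO left of WT at each stage, with the bar split by member from group means and black points for the sum in each library. The WT sum was 3.08 ± 0.30 in EpiLC, 4.28 ± 0.42 at day 3 and 5.92 ± 0.28 at day 5, and the KO sum 2.25 ± 1.01, 0.319 ± 0.185 and 0.708 ± 0.425 (SD, n = 3 each).

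The genes with the most similar pattern were sought among 11926 tested genes by the root mean square difference of centred log2 group means over the 6 groups. For St8sia1 these were Parm1 (0.34), Arhgap9 (0.42), Abcb11 (0.53) and Oas1h (0.53). For St8sia5 they were Smyd1 (0.40), Abcb11 (0.41), Oas1h (0.43) and Parm1 (0.51), so that 3 names stand in both lists. For St8sia3 they were Ror1 (0.23), a receptor of Wnt5a, the kinase gene Pim2 (0.26), Fam131b (0.32) and Pou3f1 (0.33), a factor of the formative epiblast.

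Parm1 averaged 4.83 CPM in KO and 35.3 CPM in WT at day 3, and 5.88 and 56.1 CPM at day 5. Abcb11, the bile salt export pump gene, was at 0 in every KO group and at 1.56 CPM in WT at day 3 and 4.10 CPM at day 5. Oas1h belongs to a family of near-identical copies, so its counts are uncertain. With a prior count of 0.5 in place of 2, 2 of the 4 names were kept for St8sia1, 3 for St8sia5 and 0 for St8sia3, so the names depend on how low counts are damped.

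**Figure D3:**
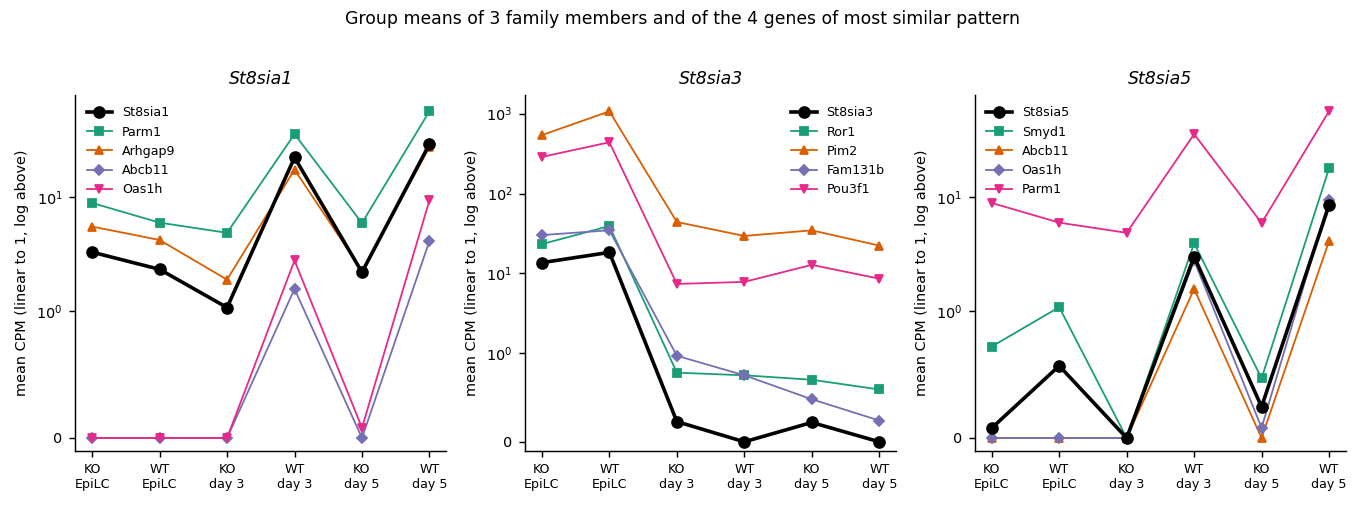
Group means in CPM (linear to 1, log above) of St8sia1, St8sia3 and St8sia5 in black and of the 4 genes of most similar pattern in colour, with KO left of WT at each stage. St8sia1, St8sia5 and their companions are high in WT at day 3 and day 5, and St8sia3 and its companions in EpiLC of either genotype.

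The enzymes around the family were followed in 7 lists of 50 genes, of which 41 were tested. In KO against WT, edgeR called 6 of the 41 in EpiLC (14.6%, against 11.1% of all tested genes), 3 at day 3 (7.32%, against 10.2%) and 7 at day 5 (17.1%, against 17.5%). At day 3 all 3 were lower, and at day 5 4 were higher and 3 lower, where 9.83% and 7.62% of all genes were. Median log2 fold changes of the 41 were 0.27, -0.06 and -0.13, against 0.01 over all tested genes in each of the comparisons. The counts rest on single libraries: without the EpiLC library labelled KO A2 they were 2, 10 and 11 (4.88%, 24.4% and 26.8%, against 4.57%, 18.8% and 27.6% of all genes), and without each library of the groups compared they ran from 0 (WT EpiLC 1) to 14 (KO EpiLC B1) in EpiLC, from 0 (day 3 KO A2 or any WT day 3 library) to 3 at day 3 and from 5 to 8 at day 5.

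GM3, the substrate of St8sia1, is built by Ugcg, B4galt5, B4galt6 and St3gal5. St3gal5 (GM3 synthase) held 17.0, 9.56 and 12.3 CPM in KO and 13.0, 14.4 and 14.1 CPM in WT at day 3, and was not called in KO against WT at any stage (-0.06 ± 0.29 at day 3, adjusted p = 0.928). B4galt5, which makes lactosylceramide, fell in KO at day 3 by 0.50 ± 0.14 (adjusted p = 0.0389). This call was lost without KO B1, KO A2 or any of the 3 WT day 3 libraries (-0.56 to -0.42, adjusted p 0.0634 to 0.151). From EpiLC to day 3 in WT, where 57.5% of genes were called, 29% as higher, 3 of the 4 genes of GM3 synthesis rose: B4galt5 by 1.99 ± 0.16, B4galt6 by 1.82 ± 0.14 and Ugcg by 1.36 ± 0.20 on the log2 scale (edgeR, adjusted p 6.28e-08, 7.31e-08 and 2.98e-05). In KO, where 42% of genes were called, 20.6% as higher and 21.4% as lower, B4galt6 rose by 1.22 ± 0.14 and B4galt5 by 1.21 ± 0.15 (adjusted p = 7.43e-06 and 1.6e-05). Without the EpiLC library labelled KO A2, 3 of the 4 genes were called higher in KO and 3 in WT, where 25.5% and 31.9% of all genes were. Ugcg held 97.5 CPM in that library, against 49.4 and 61.7 CPM in KO EpiLC A5 and B1.

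B4galnt1, the GM2 and GD2 synthase that acts on the product of St8sia1 and on GM3, was lower in KO at both PGCLC days. B4galnt1 held 6.68, 4.62 and 3.53 CPM in KO and 9.39, 12.5 and 8.65 CPM in WT at day 3, and 4.67, 5.46 and 2.45 CPM in KO and 12.4, 13.6 and 11.6 CPM in WT at day 5. The groups did not overlap at either day. It fell in KO by 1.01 ± 0.30 at day 3 (edgeR, adjusted p = 0.0383) and by 1.58 ± 0.29 at day 5 (adjusted p = 0.00156). The day 5 call held whichever day 5 library was left out. That at day 3 was lost without KO B1, KO A2 or any of the 3 WT day 3 libraries (-1.12 to -0.82, adjusted p 0.062 to 0.168).

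At day 5, 2 of 6 tested genes of the globo and lacto series and SSEA1, and 2 of 11 other sialyltransferases, rose in KO (edgeR), where 9.83% of all genes were called higher, and none of either list fell. Without line A2, 3 of the 11 other sialyltransferases were called higher and 1 lower, where 15.7% and 14.2% of all genes were. A4galt, which starts the globo series from lactosylceramide, rose by 0.97 ± 0.20 (edgeR, adjusted p = 0.00363), and B3gnt5, which starts the lacto series, by 1.40 ± 0.33 (adjusted p = 0.00737). St6gal1, which caps N-linked glycans with alpha-2,6-linked sialic acid, held 76.7, 52.4 and 48.2 CPM in KO and 32.2, 23.3 and 20.5 CPM in WT, and rose by 1.21 ± 0.24 (adjusted p = 0.00274). St3gal3 rose by 1.10 ± 0.33 (adjusted p = 0.0294), a call lost without KO A2 or any of the 3 WT day 5 libraries (0.79 to 1.18, adjusted p 0.0694 to 0.16). Fut9, which makes SSEA1, was not called in KO against WT at any stage. It rose from EpiLC to day 3 by 2.01 ± 0.24 in KO and 2.21 ± 0.24 in WT (adjusted p = 1.03e-05 and 1.38e-06).

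From EpiLC to day 3, 26 of the 41 partner genes were called in KO (63.4%), 15 higher and 11 lower, against 42% of all genes, and 27 in WT (65.9%), 22 higher and 5 lower, against 57.5% of all genes (28.5% lower). Without the EpiLC library labelled KO A2, 29 were called in KO, 22 higher and 7 lower, and 32 in WT, 25 higher and 7 lower, against 50.1% and 63.3% of all genes. Gne, which starts sialic acid synthesis, fell by 1.12 ± 0.24 in KO and by 1.27 ± 0.24 in WT (edgeR, adjusted p = 0.00132 and 0.000266). Among the globo and lacto genes A4galt rose by 1.74 ± 0.22 in KO and 2.18 ± 0.23 in WT (adjusted p = 1.61e-05 and 1.21e-06), while Fut1, a fucosyltransferase, fell by 2.88 ± 0.68 in KO and by 4.41 ± 0.71 in WT (adjusted p = 0.0032 and 7.54e-05). St6galnac6, which adds alpha-2,6-linked sialic acid to gangliosides, rose by 1.54 ± 0.15 in KO and 1.63 ± 0.15 in WT (adjusted p = 1.69e-06 and 2.33e-07). These calls held whichever library of the groups compared was left out. Without the EpiLC library labelled KO A2 the KO values were -1.06 for Gne, 2.10 for A4galt, -3.39 for Fut1 and 1.56 for St6galnac6.

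Of the 9 tested genes that cut sialic acid or break gangliosides down, 4 rose in KO at day 3 against EpiLC and 8 in WT, where 20.6% and 29% of all genes were called higher. Without the EpiLC library labelled KO A2, 8 rose in KO and 9 in WT, where 25.5% and 31.9% of all genes were called higher. Examples in WT are Neu1 (1.83 ± 0.25), the lysosomal sialidase, and Ctsa (1.66 ± 0.17), its protective protein (edgeR, adjusted p = 1.66e-05 and 8.1e-07). In KO against WT, Ctsa fell by 0.77 ± 0.16 at day 5 (adjusted p = 0.00377) and by 0.63 ± 0.16 at day 3 (adjusted p = 0.0203). The day 3 call was lost without KO A2 or any of the 3 WT day 3 libraries (-0.65 to -0.49, adjusted p 0.0556 to 0.0981).

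The 6 calls in EpiLC were all higher in KO, where 6.93% of all genes were: Cmas (0.45 ± 0.10), which activates sialic acid to its CMP form, Ugcg (0.86 ± 0.20), St3gal1 (3.65 ± 0.94), B3galnt1 (1.56 ± 0.30), Neu1 (0.93 ± 0.26) and Ncam1 (2.21 ± 0.67). Without the EpiLC library labelled KO A2 only Cmas (0.53, edgeR, adjusted p = 0.00622) and B3galnt1 (1.36, adjusted p = 0.0297) were called. The values of the others without it were 0.50 for Ugcg, 1.59 for St3gal1, 0.53 for Neu1 and 0.29 for Ncam1 (adjusted p = 0.057, 0.217, 0.172 and 0.679). Leaving out a WT EpiLC library also ended calls, that of B3galnt1 without WT 1 (1.39, adjusted p = 0.0525), that of Cmas without WT 1 or WT 3 (0.38 to 0.46, adjusted p 0.0536 to 0.0732) and those of the other 4 without any of the 3. In those fits Ugcg was 0.81 to 0.89, St3gal1 3.38 to 3.95, Neu1 0.82 to 1.09 and Ncam1 2.16 to 2.24. With edgeR on the EpiLC groups alone, 0 of the 41 partner genes and 0 of 11876 genes were called. The adjusted p was then 0.168 for Cmas, 0.151 for B3galnt1 and 0.189 to 0.244 for the other 4. The sums of the mesoderm and mesenchyme, the trophoblast and the neural markers given above were also higher in all 3 KO EpiLC libraries than in WT. So were those of the germ cell markers (55.8 to 93.1 CPM in KO EpiLC and 41.2 to 55 CPM in WT EpiLC) and the endoderm markers (4 to 13.2 and 1.52 to 2.51 CPM). Not every member was higher: Twist1 held 74 counts in KO EpiLC and 91 in WT EpiLC, and Eomes 63 and 68. Of 6 tested trophoblast markers 4 were called higher in KO EpiLC, and 1 without the EpiLC library labelled KO A2 (2.29% of all genes in that fit). The part of these markers in the 6 partner calls was not tested.

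Ncam1, the main carrier of polysialic acid, held 10.6, 7.87 and 82.7 CPM in KO EpiLC A5, B1 and A2, against 7.34, 6.66 and 7.53 CPM in WT. At day 3 it held 1.08, 0.659 and 0.504 CPM in KO and 2.17, 3.59 and 2.96 CPM in WT. Against EpiLC it fell in KO by 5.43 ± 0.92 (edgeR, adjusted p = 0.000256; -3.51 without the EpiLC library labelled KO A2). In WT the same step was -1.33 and not called (adjusted p = 0.157), though called with a replicate block (0.0253), without line A2 (0.000125) and on these groups alone. The difference between KO and WT in this step was not called (-4.09, adjusted p = 0.0631), but was without the EpiLC library labelled KO A2 (-2.18, adjusted p = 0.0439), without line A2 (0.0188), with a replicate block and by DESeq2. Nrp2, another carrier, fell in KO at day 5 by 1.37 ± 0.45 (edgeR, adjusted p = 0.0449), a call that was lost whichever of the 6 day 5 libraries was left out (-1.49 to -1.26, adjusted p 0.0745 to 0.143).

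**Figure D4:**
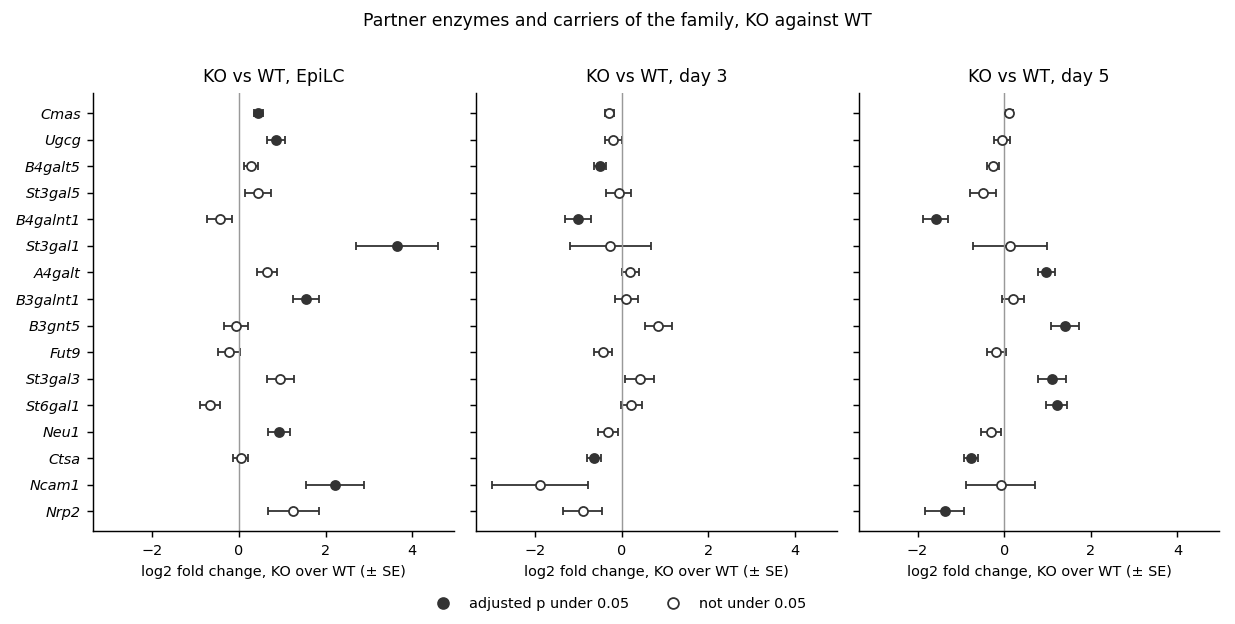
Log2 fold change of KO over WT with its SE in EpiLC, at day 3 and at day 5 (n = 3 against 3) for the partner genes called at any stage and for St3gal5, B4galnt1, Ncam1 and Fut9, filled where the adjusted p was under 0.05. B4galnt1 is lower at both PGCLC days, and A4galt, B3gnt5, St3gal3 and St6gal1 are higher at day 5.

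Between day 3 and day 5, edgeR called 0 of the 41 partner genes in KO and in WT (0.552% and 0.77% of all genes were called, 0.366% and 0.288% as higher, 0.187% and 0.482% as lower). At an unadjusted p under 0.05 there were 1 in KO and 4 in WT, DESeq2 and limma-trend also called 0, and edgeR on these groups alone called 0 in KO and 13 of 38 in WT, where that fit called 3678 of 11922 genes. With a replicate block edgeR called 0 in KO and 2 in WT, and without the EpiLC library labelled KO A2 1 in each (2.44%), where 2.68% and 4.63% of all genes were called. St8sia1 and St8sia5, with log2 fold changes of 0.37 and 1.47 over the same step in WT, are set beside these counts as values only.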

How the data were processed

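The deposited files hold raw counts by Ensembl gene, 1 file a library, and 1 table of CPM for the series. Per the file headers, symbols are paired with IDs in the CPM table, and the authors' CPM match the counts rescaled to the library total. The 50 partner genes come from 7 lists and the cell type markers from another 7. The submitters' processing notes name Trim Galore 0.4.3.1 and the builds mm10 and GRCm38.p4. The sources used here do not give the aligner, counter, annotation or strand setting. Of 25965 rows, 56 carry no gene ID (0.0559% to 0.0828% of counts) and were left out. Opposite-strand genes overlap exons of St8sia1, St8sia3 and St8sia5 (149, 919 and 387 bases) and were at 0 counts, while such a gene at St8sia6 (112 bases) was not analysed here.

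Counts were fitted in R 4.3.3 with edgeR 4.0.16 (filterByExpr, TMM factors 0.964 to 1.037, robust quasi-likelihood, 6 group means over 18 libraries). A gene was called where the Benjamini-Hochberg adjusted p over 12856 genes was under 0.05. Library depth sets the precision of low counts. Intervals are exact binomial at 95%, and a group at 0 was set to a floor of 3 counts. Positions and exonic lengths came from GENCODE M21. The edgeR fit of KO against WT at day 3 was run on counts simulated with the same spread for all genes and groups. Such counts lack the wider spread and the pairing of the KO lines, so they cannot show how the fit handles these. Members and lists were chosen with earlier results of these data known. Named partner genes are up to 4 called genes of a list per comparison with the largest changes, plus St3gal5, B4galnt1, Ncam1 and Fut9; not every gene so named is reported here. Late libraries are called day 6 in descriptions and 5 days in titles, and line A2 is KO2 in titles. KO line names pair libraries, since the line is the same (deviations from group means correlated above 0.1 in 9 of 9 pairs, 0.11 to 0.588), whereas WT numbers do not (-0.048 to 0.066). Alternatives were RLE size factors, no filter, DESeq2 1.42.0, limma-trend (limma 3.58.1) on log2(CPM + 1) and a fit to the compared groups alone. Others were a replicate block and omission of line A2 or of each library of the groups compared.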

Additional observations from a re-analysis of the deposited data

Results flagged for a closer look

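For 5 partner genes the KO effect at day 3 differed from that in EpiLC, by the interaction term in edgeR (n = 3 a group). The differences on the log2 scale were -0.73 ± 0.14 for Cmas (adjusted p = 0.00793), -1.05 ± 0.28 for Ugcg (0.0341), -0.77 ± 0.22 for B4galt5 (0.0425), -1.45 ± 0.40 for B3galnt1 (0.0412) and -1.24 ± 0.35 for Neu1 (0.0425). In this comparison 5 of 41 partner genes were called (12.2%), against 6.59% of all tested genes. Without 1 library of the groups compared at a time, this count ran from 1 to 10. Without the EpiLC library labelled KO A2 it was 3 (7.32%, against 7.97% of all genes). The call of Cmas held whichever library of the groups compared was left out. Without the library labelled KO A2 in EpiLC, Ugcg stayed under the threshold (-0.69, adjusted p = 0.0307), while B4galt5 (-0.68, 0.07), B3galnt1 (-1.24, 0.0725) and Neu1 (-0.84, 0.0651) did not. In all, leaving out 1 library at a time, WT ones among them, ended the calls of Ugcg (9 libraries, -1.09 to -1.0, adjusted p 0.0505 to 0.0824), B4galt5 (10, -0.84 to -0.68, up to 0.1), B3galnt1 (8, -1.60 to -1.21, up to 0.108) and Neu1 (9, -1.40 to -0.84, up to 0.107). With the replicate block Neu1 had an adjusted p of 0.0619. The part of the markers that set that library apart (trophoblast sum 1200 CPM, against 54.0 to 62.1 CPM in WT EpiLC) was not tested.

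St8sia1 had log2 fold changes of KO over WT of 0.448 ± 0.33 in EpiLC, -4.266 ± 0.318 at day 3 and -3.726 ± 0.279 at day 5 (SE). All 3 KO libraries lay above the WT mean in EpiLC, where the groups overlapped, and below it at both PGCLC days. The difference in direction was not tested, as St8sia1 was chosen for its changes.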

How the results depend on the processing

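St8sia6 in EpiLC passed only without line A2 (-1.103), and at day 5 it missed the threshold with no filter on low counts (-1.710, adjusted p = 0.0512) and with only the groups compared (-1.699, 0.0855). When each day 5 library was left out in turn, St8sia6 at day 5 ran from -2.803 to -1.13. Its direction in KO against WT held in all settings run. Of the fits of partner genes that left out 1 library, 485 kept the side of the threshold, 100 lost and 3 gained a call. Under the other settings these were 550, 34 and 11. Fewer libraries leave fewer degrees of freedom.

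Counts over all genes moved more. Ranges without each library are over the libraries of the groups compared only. In EpiLC 1424 genes were called in KO against WT, 181 to 2473 without each library in turn and 0 with only the groups compared (2425 at an unadjusted p under 0.05, 1834 by DESeq2 and 1307 by limma-trend on all groups). At day 3 these were 1309, 621 to 1463, and 2716 without line A2. At day 5 they were 2244, 1303 to 2189, and 3887 without line A2. The EpiLC library labelled KO A2 is outside these groups. Without it 2453 genes were called at day 3 and 3596 at day 5. From EpiLC to day 3 in KO 5394 became 2161 with only the groups compared. From day 3 to day 5 in KO 71 became 46 with no filter, 172 with DESeq2, 873 without line A2, 216 with the replicate block, 0 with only the groups compared (913 unadjusted) and 9 to 74 without each library. In WT 99 became 334 with DESeq2, 2016 without line A2, 387 with the replicate block, 3678 with only the groups compared and 10 to 18 without each library. Without the EpiLC library labelled KO A2, the step from day 3 to day 5 gave 349 calls in KO and 604 in WT. For the interaction 847 became 1912 without line A2, 1457 with the replicate block, 456 with only the groups compared and 361 to 1527 without each library. The cause was not tested.

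For St8sia1, St8sia3 and St8sia5, 13 fold changes without 1 library and 26 under other settings moved by more than the replicate spread, among them those of limma-trend, where adding 1 CPM shrinks low genes (St8sia1 at day 3 -3.51, against -4.27 from edgeR). With the longest transcript as length, family shares moved by at most 4.0 percentage points and the leading member of all 6 groups stayed the same. The replicate block changed no call of St8sia6. Members with few counts, above all St8sia2, St8sia4 and St8sia5 in KO, are limited by depth.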

Other observations

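The tested genes within 500 kb of St8sia1, St8sia5 and St8sia6 were chosen after their values were seen. Of 8 beside St8sia1, Ldhb, a lactate dehydrogenase subunit gene 313.6 kb away, averaged 33.1 ± 8.27 CPM in KO and 254 ± 7.52 CPM in WT at day 3, and 29.6 ± 8.69 and 235 ± 19.3 CPM at day 5 (SD, n = 3 each). It fell in KO by 2.93 ± 0.23 on the log2 scale at day 3 and 3.00 ± 0.23 at day 5 (edgeR, adjusted p = 1.39e-06 and 4.54e-07). Unlike St8sia1, Ldhb was also lower in KO EpiLC (-0.92 ± 0.21, edgeR, adjusted p = 0.0181). Cmas, which makes the CMP-sialic acid that all sialyltransferases use, lies 45.8 kb from St8sia1 and was not called at day 3 (-0.28 ± 0.10, adjusted p = 0.0837) or day 5 (0.11 ± 0.10, 0.475). The other 6 lay between -1.10 and 0.33 at day 3, and at day 5 5730419I09Rik, 46.5 kb away, fell by 0.39 ± 0.10 (adjusted p = 0.0103). Of the 7 tested genes beside St8sia5, Katnal2 had the lowest adjusted p of any stage (0.0994 at day 5, edgeR), and log2 fold changes ran from -0.60 to 0.40 at day 3 and from -0.44 to 0.89 at day 5.

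St6gal2, another sialyltransferase, was likewise found mainly in EpiLC. Its EpiLC libraries held 7.05, 9.39 and 5.55 CPM in KO and 7.34, 9.52 and 10.8 CPM in WT, and at day 3 it was at 0.216, 0 and 0 CPM in KO and at 0 in all 3 WT libraries.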
